A study of Mus musculus with 2 samples.

Results

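The genes described here are 36 genes of the autophagy machinery, chosen by symbol and matched by Ensembl gene ID to 36 of the 43346 gene rows of the study. They were measured by total RNA sequencing in newborn mouse skeletal muscle. The series holds 1 group, muscle of the B6NCrl strain at postnatal day 0, with 2 biological replicates, pup 1 as replicate 1 and pup 2 as replicate 2, which the labels place in the same pregnancy. No genotype, treatment or age was compared. The labels enter the same donor for both samples, so they count as 2 pups on the wording of their descriptions alone, and the spread between them is biological only if they are separate animals. Which muscle was taken is not stated and the sex was not collected. Each library started from 10 ng of RNA longer than 200 nt, with spike-in RNAs. The gene rows summed to 40454600 and 37150684 expected counts in replicates 1 and 2, an expected count being the number of reads that a model assigns to a gene. The autophagy genes took 0.254% and 0.243% of them. With 1 library per pup no test between the pups was possible, and an exact sign-flip permutation test over 2 samples has too few arrangements to pass the usual threshold, so values are given without p-values.

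Autophagy encloses a piece of cytoplasm in a double membrane, the autophagosome, and delivers it to the lysosome for breakdown. A kinase complex around ULK proteins starts the process, a lipid kinase complex with beclin 1 marks the membrane, and a pair of conjugation systems that resemble ubiquitin transfer attach proteins of the Atg8 family (LC3 and GABARAP) to its lipids, where cargo receptors bind. In newborn mice the supply of nutrients through the placenta ends at birth, and autophagy is known to be active in several tissues, heart and diaphragm muscle among them, in the hours that follow. In muscle, the transcription factors of the FoxO and TFEB families are known regulators of autophagy genes.

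TFEB and TFE3 bind the letters CACGTG, and a longer form, TCACGTGA, is typical of the promoters of lysosomal genes. FoxO factors bind the letters GTAAACA. Since Tfeb, Tfe3 and Foxo3 are among the 36 genes, these letters were searched on both strands in RefSeq promoter windows (GRCm38.p6) that run from 250 bases before to 50 bases after each start. For 30 of the 36 genes the table held 36 windows. CACGTG was found in 5 windows (13.9%), against 7.15% of all 32851 windows, and in 8 of the 16 windows (50%) held by 15 genes of a list of 21 lysosomal genes. TCACGTGA, whose core overlaps CACGTG, was found in 1 window of the autophagy genes (2.78%) and in 4 windows (25.0%) of the lysosomal genes, against 0.974% of all windows. GTAAACA was in 0 of the 36 windows, against 3.65% of all windows. Windows for Atg16l1, Rb1cc1, Becn1, Bnip3l, Atg12 and Map1lc3a were not analysed here. The 6 matches of CACGTG are shown because they are the places in these windows that carry the letters of member factors, as 30 bases from 5′ to 3′ on the gene's strand with the match in capitals. A match is a run of letters and not a measured binding site.
Atg7: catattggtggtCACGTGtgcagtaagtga
Bnip3: gcgcacgcgccgCACGTGccacacgctccc
Atg5: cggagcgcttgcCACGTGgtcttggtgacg
Atg14: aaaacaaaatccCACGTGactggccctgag
Atg3, upstream match: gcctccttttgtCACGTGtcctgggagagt
Atg3, downstream match: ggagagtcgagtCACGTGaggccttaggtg
The matches lie at chr6:114670952-114670981 (Atg7, plus strand), chr7:138909597-138909626 (Bnip3, minus strand), chr10:44268313-44268342 (Atg5, plus strand), chr14:47568418-47568447 (Atg14, minus strand), and chr16:45158723-45158752 and chr16:45158746-45158775 (Atg3, plus strand). Their capitals begin 132 bases (Atg7), 108 bases (Bnip3), 14 bases (Atg5), 1 base (Atg14) and 94 and 71 bases (Atg3) before the RefSeq start of the window. That start need not be the outermost start of the gene. In GENCODE, Atg7 begins at chr6:114643097 and Atg14, on the minus strand, at chr14:47570649. The matches of Atg7 and Atg14 therefore lie inside the annotated genes, at internal starts. The downstream match of Atg3 is the single TCACGTGA among the autophagy genes. Of the 5 genes, 3 code for parts of the conjugation systems (Atg3, Atg5 and Atg7), 1 for the lipid kinase subunit Atg14 and 1 for the mitophagy receptor Bnip3. The conjugation systems are the largest role, with 7 of the 36 genes, and the matches are too few to compare roles.

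All 36 genes had a mean level of at least 1 TPM (a length-corrected share of each library's transcripts), compared with 12495 of 21474 protein-coding genes (58.2%). The median of the 36 means was 24.09 TPM, against 11.8 TPM for the protein-coding genes at or above 1 TPM, and 25 of the 36 lay above that value. The levels ran from 1.06 TPM for Atg9b to 389 TPM for Map1lc3a. Summed over transcript models annotated as protein-coding, as described below, Atg9b was under 1 TPM, at 0.66 and 0.23 TPM. A group of 7 genes was above 100 TPM, 18 genes lay between 10 and 100 TPM, and 11 were below 10 TPM. The 7 highest, all of the Atg8 family or cargo receptors, held 74.3% and 73.4% of the summed TPM of the 36 genes in replicates 1 and 2. In bulk tissue a lower level can mean fewer cells of a type or less RNA per cell, which cannot be told apart.

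**Figure D1:**
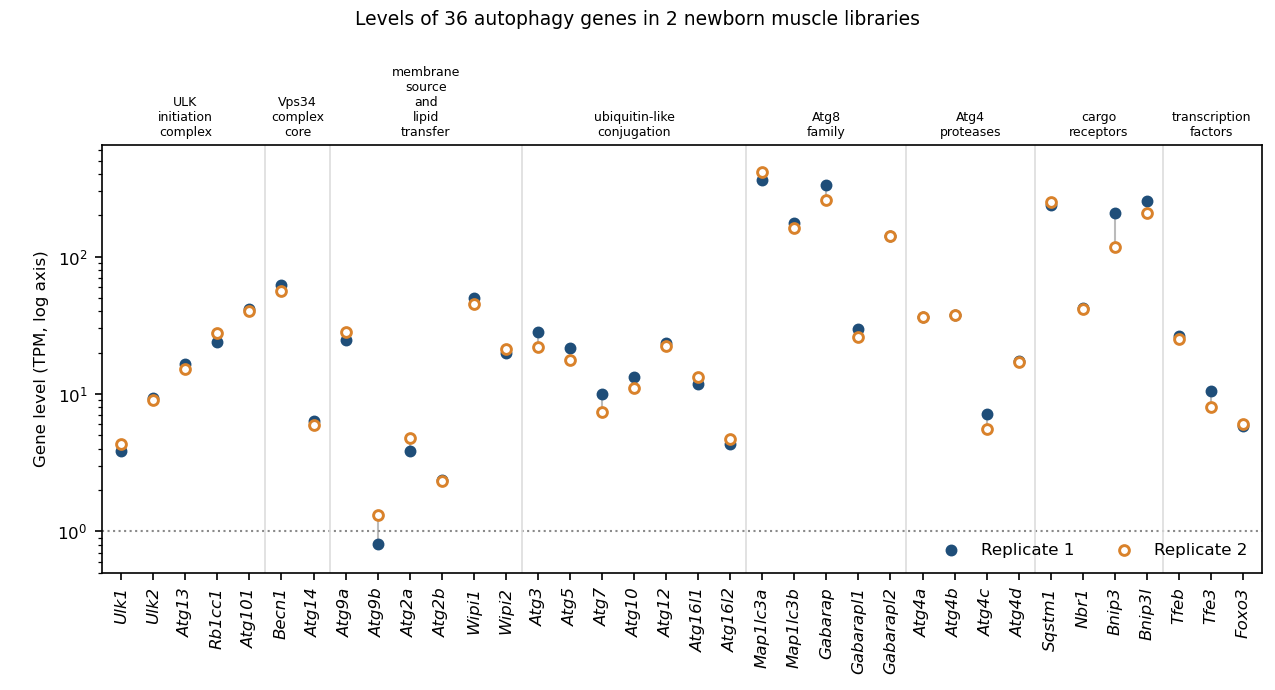
Gene level (TPM, logarithmic axis) of the 36 autophagy genes, grouped by role, with a filled point for replicate 1 and an open point for replicate 2; the dotted line marks 1 TPM. The Atg8 family and the cargo receptors hold the 7 genes above 100 TPM, and Atg9b is the lowest gene, at 0.81 and 1.31 TPM.

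The starting kinase complex was present at uneven levels. Its 5 genes summed to 95.3 and 96.1 TPM, 4.14% and 4.54% of the autophagy total in replicates 1 and 2. Atg101, a subunit that stabilises Atg13, was the highest at 41.8 and 40.1 TPM. Rb1cc1, which codes for the large scaffold FIP200, stood at 23.8 and 27.6 TPM, and Atg13, the adaptor between scaffold and kinase, at 16.4 and 15.2 TPM. The kinases themselves were the lowest of the complex. Ulk2 was at 9.42 and 8.98 TPM and Ulk1 at 3.84 and 4.32 TPM, and the libraries of these genes did not overlap. The log2 ratio of Ulk2 to Ulk1, with 0.1 TPM added to each level, was 1.16 ± 0.17 (SD, n = 2), and it was above 2-fold in both pups.

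Of the lipid kinase complex, Becn1 (ENSMUSG00000035086, chr11:101285952-101302286), the beclin 1 scaffold, was at 61.8 and 56.4 TPM. Atg14, the subunit that directs the complex to forming autophagosomes, was at 6.32 and 5.91 TPM. Most of the Becn1 level was in transcript models that are not annotated as protein-coding, as described below. The 8 partner genes outside the 36, a list drawn up with earlier results of these data known, were all at or above 1 TPM with a median of 10.08 TPM. The highest of them by mean TPM were Bcl2l1, an inhibitor that binds beclin 1, at 25.3 and 23.7 TPM and Nrbf2, a subunit of the Atg14 complex, at 21.2 and 14.5 TPM. The range of Nrbf2 overlapped that of the next gene, so its place is not settled.

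Genes that supply and extend the membrane ranged from 1.06 to 47.5 TPM. Wipi1 and Wipi2 code for proteins that bind the lipid made by the kinase complex. Wipi1 was the higher, at 50.04 and 44.96 TPM against 19.9 and 21.2 TPM for Wipi2, a log2 ratio of -1.2 ± 0.17 for Wipi2 to Wipi1. Atg9a, which codes for the membrane protein of small vesicles that seed the autophagosome, was at 24.8 and 28.2 TPM. Its relative Atg9b was the lowest of all 36 genes, at 0.81 and 1.31 TPM, and stood at -4.55 ± 0.32 against Atg9a on the log2 scale. The lipid transfer genes Atg2a (3.85 and 4.79 TPM) and Atg2b (2.38 and 2.31 TPM) were low, and their ratio was under 2-fold in replicate 1. In the list of 6 membrane partners the highest were Vmp1, which codes for a lipid scramblase of the endoplasmic reticulum, at 63.9 and 48.5 TPM and the WIPI family gene Wdr45b at 49.2 and 43.7 TPM.

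The 7 genes of the conjugation systems lay within a range of 4.54 to 25.2 TPM and summed to 113 and 98.6 TPM. Atg3, the enzyme that passes Atg8 proteins to lipid, was at 28.3 and 22.1 TPM. Atg12, itself a ubiquitin-like protein, was at 23.5 and 22.5 TPM, and Atg5, to which it is joined, at 21.8 and 17.7 TPM. Atg10, the enzyme that joins them, was at 13.3 and 11.0 TPM. Atg7, the activating enzyme that serves both systems, was lower at 9.99 and 7.35 TPM. The scaffold Atg16l1 was at 11.9 and 13.3 TPM and its relative Atg16l2 at 4.35 and 4.74 TPM, a log2 ratio of -1.45 ± 0.03 for Atg16l2 to Atg16l1. Counts of each gene behind these levels ran from 193 for Atg16l2 to 1679 for Atg12.

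The Atg8 family held the largest share of the autophagy TPM of any role, 45.2% in replicate 1 and 47.5% in replicate 2. Map1lc3a (ENSMUSG00000027602, chr2:155276297-155278073), which codes for LC3A, was the highest of the 36 genes at 362 and 415 TPM. Gabarap (ENSMUSG00000018567, chr11:69991143-69994951) followed at 333 and 260 TPM, and the ranges of these highest 2 genes did not overlap. Map1lc3b (ENSMUSG00000031812, chr8:121590361-121598760), the gene of the LC3B protein that is widely used as a marker of autophagosomes, was at 174 and 163 TPM. Gabarapl2 was at 142 and 141 TPM. Gabarapl1 was far below the others, at 29.5 and 26.0 TPM, a log2 ratio of -3.40 ± 0.12 to Gabarap. On this scale Map1lc3a exceeded Map1lc3b by 1.2 ± 0.21, a lead that depends on which transcript models are summed.

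The Atg4 proteases trim the Atg8 proteins before conjugation and release them from lipid afterwards. Atg4a was at 36.3 and 36.5 TPM and Atg4b, which codes for the protease with the broadest known activity, at 37.6 and 37.5 TPM. The pair differed by -0.05 ± 0.01 on the log2 scale. Atg4d was at 17.4 and 17.2 TPM and Atg4c was the lowest at 7.12 and 5.60 TPM, -2.55 ± 0.24 against Atg4b.

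The cargo receptors held 32.2% and 29.1% of the autophagy TPM. Sqstm1 (ENSMUSG00000015837, chr11:50199366-50210827), the p62 receptor that links ubiquitinated cargo to LC3, was at 239 and 248 TPM, with the highest counts of all 36 genes, 13043 and 12788. Nbr1, a receptor with a similar layout, was at 42.0 and 41.9 TPM, -2.53 ± 0.04 against Sqstm1. Bnip3 and Bnip3l code for receptors on the outer mitochondrial membrane and are known to respond to low oxygen. Bnip3 (ENSMUSG00000078566, chr7:138890836-138909519) was at 207 and 118 TPM and Bnip3l (ENSMUSG00000022051, chr14:66985239-67008877) at 253 and 208 TPM. The range of Bnip3 overlapped those of Map1lc3b and Gabarapl2, so the place of Bnip3 beside these genes is not settled by 2 libraries. Of the 13 further receptor genes in the selective autophagy list, all were at or above 1 TPM. The highest were Stbd1, a receptor for glycogen, at 320 and 304 TPM and Phb2, an inner mitochondrial membrane receptor, at 295 and 270 TPM. In the list of PINK1 and Parkin mitophagy, the kinase gene Pink1 led at 94.97 and 123 TPM, followed by the ubiquitin ligase gene Mul1 at 14.1 and 13.1 TPM.

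The transcription factors were lower, at 1.86% and 1.84% of the autophagy TPM. Tfeb was at 26.4 and 25.0 TPM and Tfe3 at 10.6 and 8.04 TPM, a log2 ratio of -1.47 ± 0.22 for Tfe3 to Tfeb. Foxo3 was at 5.83 and 6.03 TPM and its relative Foxo1 at 3.31 and 2.76 TPM, which was 2-fold in replicate 2 but not in replicate 1. Among the other factors of these families, Foxo4 was at 2.68 and 2.96 TPM, while Foxo6 (0.24 and 0.11 TPM) and Tfec (1.41 and 0.57 TPM) had means below 1 TPM.

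Ordered by mean TPM, 16 of the 35 neighbouring pairs of autophagy genes had overlapping ranges over the 2 libraries. Map1lc3a and Gabarap, Gabarap and Sqstm1, and Bnip3l and Map1lc3b did not overlap. Sqstm1 and Bnip3l did.

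The transcript tables changed this order. Each gene level is a sum over the gene's annotated transcript models, which the annotation labels as protein-coding, as targets of nonsense-mediated decay (a pathway that degrades messages with an early stop), as retaining an intron, or as processed transcripts without a coding frame. Of the 36 genes 9 had a single model. Models annotated as protein-coding held more than 90% of the gene's TPM in 23 genes (63.9%, against 69.0% of 12471 protein-coding genes at or above 1 TPM with such models) and less than 50% on average in 7 genes (19.4%, against 7.67%). These 7 were Becn1, Map1lc3a, Gabarapl2, Atg4b, Bnip3l, Atg16l2 and Atg9b. Summed over the 36 genes, protein-coding models held 1584 and 1406 TPM of a total of 2301 and 2116 TPM.

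For Map1lc3a the leading model was Map1lc3a-203, a processed transcript of 826 nt, with 63.9% and 68.1% of the gene's TPM, or 56.3% and 60.5% of its counts. Of its bases, 91.6% are also exonic in coding models of the gene and 69 are not. The coding models of Map1lc3a held 126 and 133 TPM, less than those of Map1lc3b at 174 and 162 TPM. In Gabarapl2 a retained-intron model of 749 nt, Gabarapl2-203, held 68.5% and 65.3% of TPM and 47.2% and 43.7% of counts, and 92 of its bases lie outside coding models. Its coding models were at 44.8 and 48.7 TPM. The pattern was more even in Gabarap, where the coding models Gabarap-202 and Gabarap-201 held 53.4% and 29.9% of TPM in replicate 1 and 53.4% and 28.5% in replicate 2.

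Bnip3l had the smallest coding share of TPM in the 2 pups together, 10.1% and 10.5%. Its short processed transcripts Bnip3l-205 (789 nt) and Bnip3l-204 (354 nt) held 46.0% and 42.8% of TPM in replicate 1 and 44.7% and 43.7% in replicate 2. The full-length coding model Bnip3l-202 (3259 nt) held 8.76% and 9.99% of TPM but 36.9% and 41.8% of counts, because a short model turns the same reads into a higher TPM. Becn1 had the smallest coding share of counts, 18.7% and 18.5%. Its leading model was Becn1-201 (2123 nt), annotated as a target of nonsense-mediated decay. Becn1-201 held 44.9% and 44.8% of TPM and 60.3% and 62.6% of counts. All but 4 of its bases are also in coding models of Becn1. Coding models of Becn1 held 23.8% and 22.9% of TPM, or 14.7 and 12.9 TPM. Of the exonic bases of Becn1, 43.9% overlap exons of Cntd1 on the other strand, a gene with 14 and 19 counts.

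Atg4b led with Atg4b-204, annotated as a target of nonsense-mediated decay, with 32.7% and 33.0% of TPM but 18.4% and 20.0% of counts. By counts the coding model Atg4b-201 led, with 64.1% and 59.3%. In all, the leading model was the same in both pups in 32 genes, and by its mean share over the pups it was protein-coding in 31 genes by TPM and in 33 by counts. Becn1 and Map1lc3a were led by a noncoding model on both scales in both pups. By counts Bnip3l was led by Bnip3l-205 in replicate 1 (42.3% against 36.9% for the coding Bnip3l-202) and by Bnip3l-202 in replicate 2 (41.8% against 40.9%). The leading model differed between the pups in Atg7, Atg9b, Atg16l1 and Atg16l2. In Atg7, Atg7-210 held 55.8% and 39.0% of TPM and Atg7-201 held 41.6% and 52.1%. These shares are estimates of a model that divides reads among overlapping models. For Map1lc3a-203 the deposited posterior standard deviation was 101 and 90.9 reads on 5035 and 5814 counts. That figure does not cover models missing from the annotation.

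**Figure D2:**
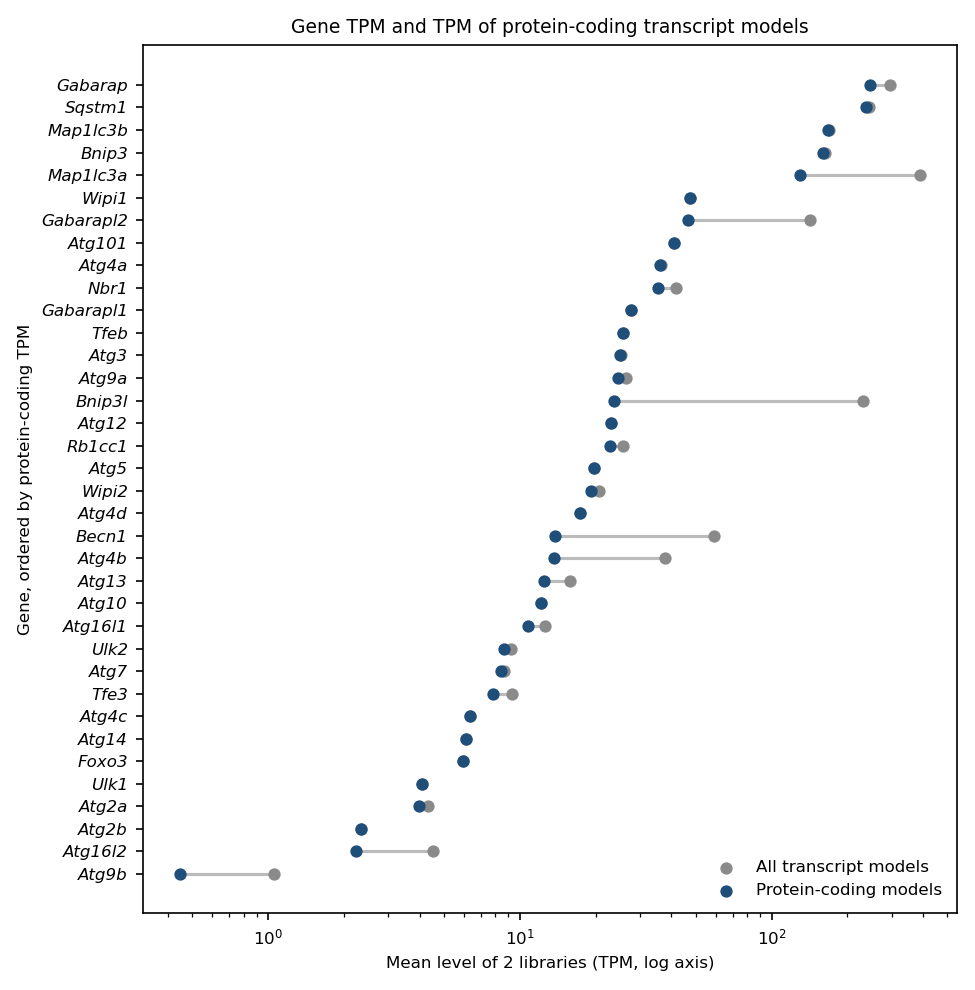
Mean level over 2 libraries (TPM, logarithmic axis) of each autophagy gene, summed over all transcript models (grey) and over protein-coding models (blue), with genes ordered by the blue value. Bnip3l has the longest line, from 230 to 23.7 TPM, and Becn1, Map1lc3a and Gabarapl2 also have long ones, while most genes show no visible gap.

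Summed over protein-coding models, Gabarap (245 ± 45.2 TPM, SD, n = 2) and Sqstm1 (238 ± 6.75 TPM) had the highest means of the 36 genes. Their ranges overlapped, with Gabarap at 277 and 213 TPM and Sqstm1 at 233 and 243 TPM, so first place is not settled. Map1lc3b followed at 168 ± 8.33, Bnip3 at 161 ± 62.1 and Map1lc3a at 129 ± 4.64 TPM. Bnip3l moved from rank 4 to rank 15 and Becn1 from rank 8 to rank 21. The Atg8 family kept the largest share on this scale, 41.1% and 41.4% of the coding TPM of the 36 genes. Neighbours in the coding order overlapped in 23 of 35 cases.

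Of 17 pairs of related genes a difference of at least 2-fold with the same sign in both pups was seen in 11. The gene named first was higher in 3 and the gene named second in 8, and 6 pairs lay within 2-fold in at least 1 pup. On protein-coding models alone 10 pairs passed, and the call changed in 7 of the 17. Map1lc3a to Map1lc3b went from 1.2 to -0.38 ± 0.12 on the log2 scale. Atg4d to Atg4b went from -1.11 to 0.35 ± 0.15, and Atg4a to Atg4b from -0.05 to 1.4 ± 0.16. Bnip3l to Bnip3 went from 0.55 ± 0.37 to -2.71 ± 0.41. Gabarapl2 to Gabarap went from -1.05 ± 0.24 to -2.38 ± 0.35, and Gabarapl2 to Gabarapl1 from 2.35 ± 0.12 to 0.75 ± 0.21. Ulk2 to Ulk1 moved little, from 1.16 to 1.07 ± 0.15, which put replicate 2 under 2-fold at 0.96. The pairs Atg9b to Atg9a, Wipi2 to Wipi1, Atg16l2 to Atg16l1, Gabarapl1 to Gabarap, Atg4c to Atg4b, Nbr1 to Sqstm1 and Tfe3 to Tfeb were past 2-fold on both scales in both pups. On counts not corrected for length, Wipi2 to Wipi1 (-0.74 and -0.47) and Tfe3 to Tfeb (-0.72 and -0.99) lay within 2-fold. Atg4c to Atg4b went from -2.55 to -1.09 ± 0.07 on coding models, close to the 2-fold limit. These SDs show how closely the libraries repeat and do not cover errors that both share.

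**Figure D3:**
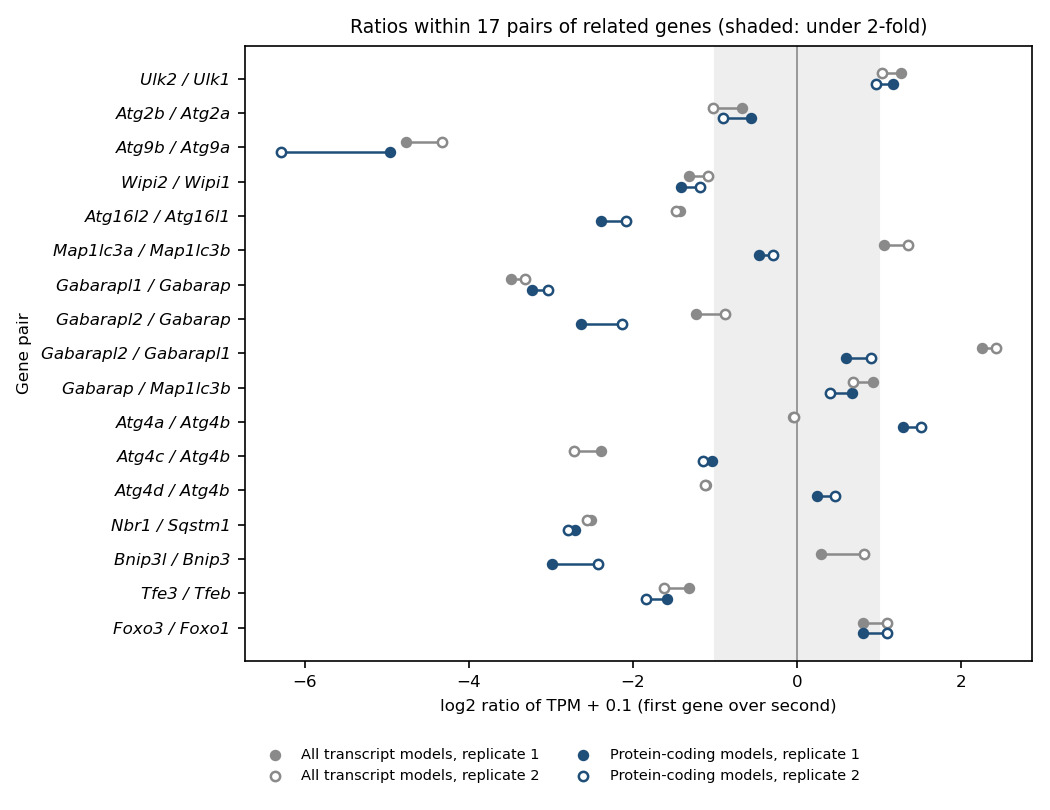
Log2 ratio of TPM + 0.1 within 17 pairs of related genes, from all transcript models (grey) and from protein-coding models (blue), with filled points for replicate 1 and open points for replicate 2; the shaded band is under 2-fold. The means of 4 pairs change sign between the scales: Map1lc3a / Map1lc3b, Atg4a / Atg4b, Atg4d / Atg4b and Bnip3l / Bnip3, the last from 0.55 to -2.71.

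Between the pups the typical difference of an autophagy gene was like that of all genes. Ratios were taken as replicate 2 over replicate 1 in log2 CPM (counts scaled to a common library size) for the 35 genes with at least 100 mean counts, the exception being Atg9b. At 2-fold 0 of 35 passed, against 2.43% of 12429 gene rows with as many counts, and at 1.5-fold 1 of 35 passed, against 6.15%. The median of the 35 ratios was 0.07 and that of all 12429 genes was -0.01. The median size of the ratio, without its sign, was 0.15 for both. Replicate 2 was higher for 22 of the 35 genes (47.9% of all genes). With libraries scaled by total counts that became 16 of 35, with a median of -0.02 against -0.10 for all genes, and on log2(TPM + 0.1) it became 11 of 35, with a median of -0.06 against -0.15, so the split between higher and lower genes depends on the scaling.

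The gene past 1.5-fold was Bnip3, with 10136 counts in replicate 1 and 5478 in replicate 2. Its log2 ratio was -0.67 (95% counting interval -0.72 to -0.63), 1.60-fold lower in replicate 2, and its coding level was 204 and 117 TPM. Bnip3l, its closest relative, had 5673 and 4435 counts and a log2 ratio of -0.14 (-0.20 to -0.09). The next genes on the side of replicate 1 were Atg7 at -0.25, Gabarap at -0.23, Atg3 at -0.23 and Tfe3 at -0.22. On the side of replicate 2 were Atg2a at 0.43, Map1lc3a at 0.32, Foxo3 at 0.31 and Ulk1 at 0.30. By role, the median ratio ran from -0.15 for the 7 conjugation genes to 0.16 for the 6 membrane genes (Atg9b included), with the Atg8 family at 0.10. Atg9b had 77 and 41 counts, a log2 ratio of -0.67 (95% counting interval -1.28 to -0.13), yet its TPM was higher in replicate 2. Its short processed model Atg9b-202 (490 nt) had 2 and 11 of these counts, which became 0.15 and 0.96 TPM. Exons of Nos3, a gene of 781 and 526 counts on the other strand, cover 7.45% of its exonic bases.

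**Figure D4:**
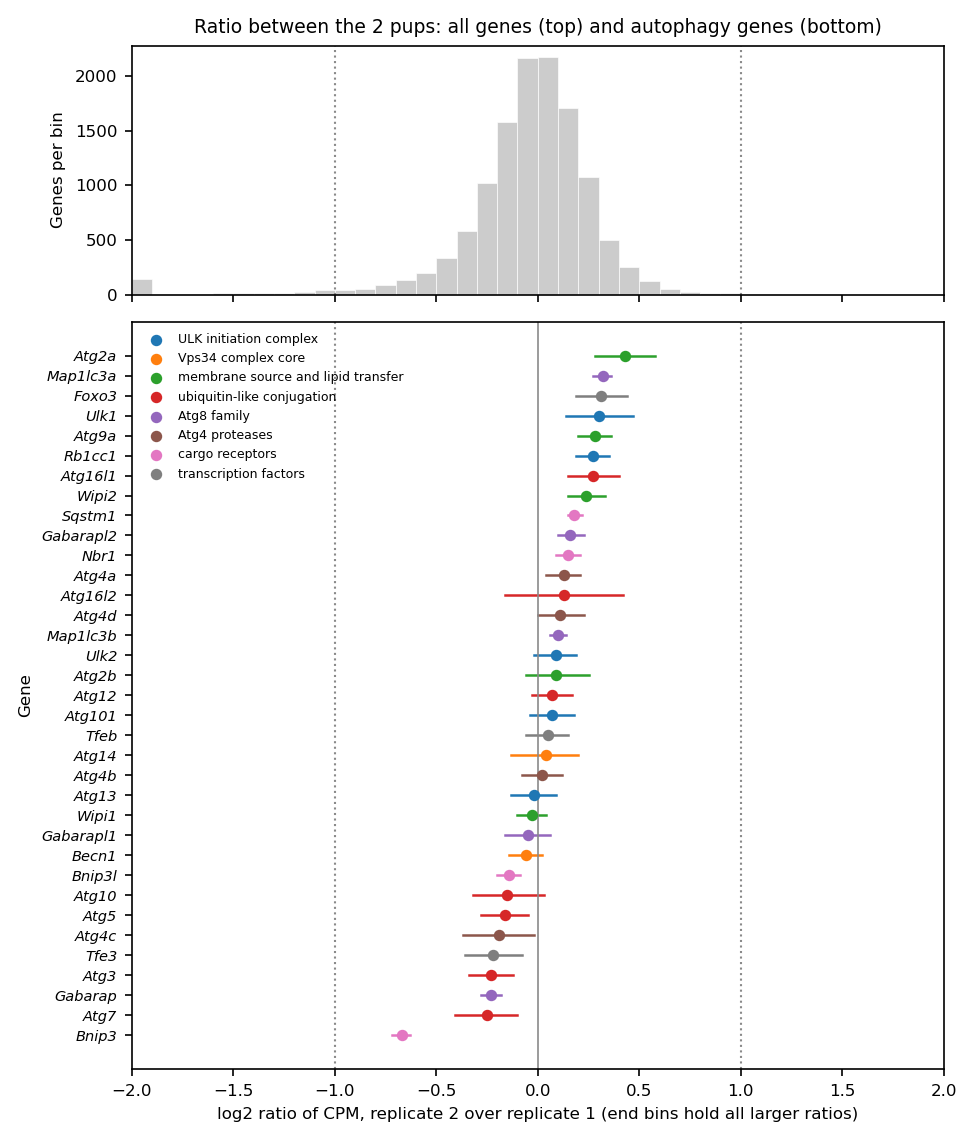
Log2 ratio of CPM, replicate 2 over replicate 1: number of genes per bin of 0.1 for 12429 genes with at least 100 mean counts (top; the end bins hold all larger ratios) and value with its 95% counting interval for 35 autophagy genes (bottom, coloured by role). Bnip3 at -0.67 lies apart from the other autophagy genes, which run from -0.25 to 0.43, and none reaches the dotted lines at 2-fold.

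Markers of epidermis, adipocytes and cartilage differed between the libraries far more than the autophagy genes. Of the tested genes, all 9 epidermis markers, all 7 adipocyte markers and all 5 cartilage markers were more than 2-fold higher in replicate 1. Of all 12429 genes 2.43% passed 2-fold in either direction. Their summed levels were 696 and 22.1 TPM for epidermis (9 genes, Krtdap and Krt1 the highest), 5086 and 892 TPM for adipocytes (8 genes, Fabp4 and Cfd the highest), and 48.1 and 1.85 TPM for cartilage (8 genes, Col2a1 and Snorc the highest, with Snorc at 0 counts in replicate 2, which allows up to 3 counts). The 8 skeletal muscle markers, led by Acta1 and Ckm, summed to 78648 and 88480 TPM with a median log2 ratio of 0.28, and 0 of 8 were past 2-fold. Leukocyte markers (8 genes, Cma1 and Cpa3 the highest) summed to 1417 and 825 TPM, fibroblast markers (6 genes, Col3a1 and Col1a1) to 6044 and 4361, erythroid markers (7 genes, Hba-a2 and Hbb-bs) to 6158 and 5063, and endothelial markers (6 genes, Egfl7 and Pecam1) to 224 and 209.88 TPM. In the leukocyte (8 tested), fibroblast (6), erythroid (6) and endothelial (6) lists 0 genes passed 2-fold, against 2.43% of all genes. Lists this small can hold 0 at that share, as can the 8 muscle markers. At 1.5-fold 3 of the 8 leukocyte markers passed, against 6.15% of all genes. Heart markers (5 genes, Tnni3 and Myh6 the highest) were low, with sums of 6.77 and 6.70 TPM. Myh6 had 348 and 414 counts, Tnni3 57 and 50, and Nkx2-5 0 and 1. Liver markers (5 genes) summed to 606 and 85.5 TPM, of which transferrin, Trf, was 591 and 64.2 TPM. The other liver markers, led by Apoa1 at 6.40 and 11.0 TPM, were all higher in replicate 2. The part of these tissues in the level of Bnip3 or of any other autophagy gene was not tested.

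Across 8 lists of 89 further genes, 87 were at or above 1 TPM and 87 had at least 100 mean counts. Their median log2 ratio was -0.02. At 2-fold 1 of 87 passed, against 2.43% of all genes, and at 1.5-fold 3 of 87 passed, against 6.15%. Both shares were below those of all genes and rest on few genes. The gene past 2-fold was Sesn2, which codes for a stress-induced inhibitor of the mTORC1 kinase, with 373 and 147 counts and 3.70 and 1.54 TPM, a log2 ratio of -1.12. The other two, named after their values were seen, were the hypoxia-induced mTORC1 inhibitor Ddit4 at -0.65 (851 and 467 counts) and the receptor Optn at -0.75 (839 and 429 counts). Among the 18 regulators of the starting kinases, the small GTPase gene Rheb, an activator of mTORC1, was highest at 163 and 162 TPM, followed by Akt1s1, an mTORC1 subunit, at 103 and 91.0 TPM. In the fusion list (13 genes), the late endosome GTPase gene Rab7 was at 199 and 205 TPM and the SNARE gene Vamp8 at 89.8 and 73.4 TPM. The 21 lysosomal genes had the highest median of the 8 lists, 48.4 TPM, led by the membrane protein gene Laptm4a at 390 and 363 TPM and the protease gene Ctsd at 337 and 279 TPM. Of the 21, 0 passed 2-fold, and their median log2 ratio was -0.05.

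Reads of some autophagy genes can be shared with near copies or with genes that overlap them. Of the 36 genes, 20 shared no 50-base word of their leading coding transcript with any other gene, and 9 shared more than 10% of these words. Atg4a shared 63.6% with Atg4a-ps, which had 24 and 16 counts against 2274 and 2140 for Atg4a. Atg9a shared 47.8% with the overlapping gene Gm29253 on the same strand, which had 21 and 0 counts. Bnip3l shared 23.4% with Bnip3l-ps (96 and 62 counts), Bnip3 18.9%, mostly with Gm16439 (25 and 11 counts), and Map1lc3b 13.8%, mostly with Gm6055 (79 and 104 counts). The deposited posterior standard deviation of the gene counts was 0 for 25 genes and at most 1.57% of the count, in Atg9b. Exons of a gene on the other strand overlap those of 10 of the 36 genes, and whether counting used the strand is not given in the sources used here.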

How the data were processed

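Total RNA was sequenced from 2 newborn muscle samples. Per the notes deposited with the tables, quantification used mm10 and GENCODE M4; the aligner and quantifier: not given in the sources used here. The authors deposited expected counts (reads assigned by a model), TPM, posterior means of both, the percent of the gene's TPM per transcript, and a posterior standard deviation of each count, treated as a score here. GENCODE M21, also on mm10, gave gene names, transcript types and positions by ID without version (42462 of 43346 gene rows); transcript types are those of M21, and some models changed length between versions.

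The 36 genes, the 8 pathway lists, 10 marker lists and 17 pairs were chosen with earlier results of these data known. Named are all 36 genes, the 2 genes of highest mean TPM in each list, pathway genes under 1 TPM or past 2-fold, and Foxo1. Levels are deposited TPM. A pair was called at 2-fold in both libraries on log2(TPM + 0.1). For ratios between pups, expected counts were rounded, and edgeR 4.0.16 (R 4.3.3) gave TMM-scaled log2 CPM at a prior count of 2; genes needed 100 mean counts. An alternative used size factors of DESeq2 1.42.0. Intervals are exact Clopper-Pearson at 95%, and they and the limit of 3 counts cover counting error only, as reads without molecular identifiers may be copies. Protein sequences were not analysed here. Python 3.11.15, pandas 2.3.3, numpy 2.4.6, scipy 1.17.1 and matplotlib 3.10.9 were used.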

Additional observations from a re-analysis of the deposited data

How the results depend on the processing

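With 2 libraries the precision is that of 2 values per gene, and depth limits Atg9b most. The median level of the 36 genes was 24.09 TPM and lay between 22.27 and 23.66 TPM when each replicate was left out in turn. The count of pairs past 2-fold, 11, became 7 on expected counts not corrected for length, where longer genes gain. The pairs that dropped out were Wipi2 to Wipi1, Map1lc3a to Map1lc3b, Atg4d to Atg4b and Tfe3 to Tfeb. Without the minimum of 100 counts (10 or none), Atg9b joined Bnip3 past 1.5-fold, which made 2 genes, while 14.4% (minimum of 10) and 14.3% (none) of all genes passed. On protein-coding transcripts 4 pair ratios changed sign: Map1lc3a to Map1lc3b turned from 1.2 to -0.38 and Atg4d to Atg4b from -1.11 to 0.35, both called on gene TPM, and Bnip3l to Bnip3 from 0.55 to -2.71 and Atg4a to Atg4b from -0.05 to 1.4, both within 2-fold on gene TPM. The ratio of Atg9b between the pups turned from -0.67 to 0.63 on log2(TPM + 0.1). The pair ratios differ between these scales only because noncoding models are left out of the coding sums. In Atg9b, the processed model Atg9b-202 went from 0.15 to 0.96 TPM and the coding Atg9b-201 from 0.66 to 0.23 TPM. Why the models have these shares was not tested. Bnip3 stood between -0.81 and -0.67 under all scalings tried, and was the only gene of the 35 past 1.5-fold under DESeq2 size factors, total counts, a prior count of 0.5, posterior mean counts and log2(TPM + 0.1). The count of genes at or above 1 TPM stayed at 36 with posterior means and was 35 in replicate 1 alone and at a threshold of 2 TPM. Pathway genes at or above the threshold numbered 87, and 88 at 0.5 TPM. No paired analysis was possible because the series has 1 group. The comparison of protein sequences planned for the Atg8 family was not run.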
